A study of Mus musculus with 13 samples.

Results

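The genes described here are regulators of Polycomb repression and of histone-based silencing. A list of 39 genes was read from Affymetrix Mouse Gene 1.0 ST arrays, each on the probe set that carried the gene's symbol alone and had the highest mean over 13 arrays. This gave values for 37 of the 39 genes, out of 19938 genes measured in this way. Cbx6, whose symbol stood only on a probe set with several symbols, and Suv39h1 were not analysed here. All mice were Apc mutants crossed with transgenic mice that express FPs, a term that the labels do not spell out, and all samples came from the small intestine. There were 3 adenoma arrays, 4 arrays of normal epithelium with high FP expression (FP-high) and 6 arrays of normal epithelium with low FP expression (FP-low), and the normal epithelium lay next to adenomas. The labels give neither the promoter that drives the FP transgene, nor the age of the mice, nor which arrays share an animal, so p-values measure only the spread between these samples, which may be technical. Crypts were picked with a glass capillary and their RNA was amplified before labelling.

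Polycomb proteins keep developmental genes silent through a pair of complexes. Polycomb repressive complex PRC2 methylates histone H3 on a lysine that PRC1 then recognises through its Cbx subunits, while PRC1 itself ubiquitinates histone H2A. A separate silencing system methylates another lysine of histone H3, which is bound by the heterochromatin proteins of the HP1 family, and deacetylase complexes remove acetyl groups that keep chromatin open. In the intestinal crypt, PRC1 and PRC2 are known for sustaining proliferation of stem and progenitor cells and for restraining genes of other lineages.

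Promoters of 6 members are shown first, as sequence context for the genes whose values are given below. Setdb1 and Cbx5 had the smallest p-values of all members between FP-high and FP-low epithelium, and Rnf2 and Cbx7 had the smallest between adenoma and normal epithelium. Ezh2 and Suz12 are core PRC2 genes with an E2F-type match and were chosen after their values and sequences were seen. Each window runs 5′ to 3′ on the gene's strand from 250 bases before to 50 bases after the annotated start, from RefSeq on GRCm38.p6, and capitals mark motif matches on either strand.
Setdb1, chr3:95357153-95357452, minus strand: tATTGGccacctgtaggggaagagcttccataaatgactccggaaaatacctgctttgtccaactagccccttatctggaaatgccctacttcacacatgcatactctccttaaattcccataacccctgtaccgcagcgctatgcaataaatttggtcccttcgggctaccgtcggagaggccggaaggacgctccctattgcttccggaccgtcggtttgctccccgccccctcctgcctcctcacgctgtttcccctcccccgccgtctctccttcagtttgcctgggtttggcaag
Cbx5, chr15:103239803-103240102, minus strand: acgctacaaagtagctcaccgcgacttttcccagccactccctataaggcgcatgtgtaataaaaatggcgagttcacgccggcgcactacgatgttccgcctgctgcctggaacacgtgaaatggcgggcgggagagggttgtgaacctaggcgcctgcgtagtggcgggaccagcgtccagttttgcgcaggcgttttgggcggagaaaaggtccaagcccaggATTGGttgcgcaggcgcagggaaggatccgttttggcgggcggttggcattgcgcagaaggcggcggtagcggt
Rnf2, chr1:151500942-151501241, minus strand: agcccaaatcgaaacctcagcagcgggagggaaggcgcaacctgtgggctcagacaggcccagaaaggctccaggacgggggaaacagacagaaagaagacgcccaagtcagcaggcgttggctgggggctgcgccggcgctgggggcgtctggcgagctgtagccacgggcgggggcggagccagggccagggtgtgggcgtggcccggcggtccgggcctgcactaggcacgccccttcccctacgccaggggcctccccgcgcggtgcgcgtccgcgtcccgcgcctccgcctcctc
Cbx7, chr15:79932597-79932896, minus strand: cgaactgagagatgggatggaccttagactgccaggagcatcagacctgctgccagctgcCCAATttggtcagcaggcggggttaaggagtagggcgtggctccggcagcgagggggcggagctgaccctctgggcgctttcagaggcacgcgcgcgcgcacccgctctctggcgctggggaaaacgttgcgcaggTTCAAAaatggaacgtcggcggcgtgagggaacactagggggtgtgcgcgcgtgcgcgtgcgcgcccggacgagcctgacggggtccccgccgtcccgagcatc
Ezh2, chr6:47594981-47595280, minus strand: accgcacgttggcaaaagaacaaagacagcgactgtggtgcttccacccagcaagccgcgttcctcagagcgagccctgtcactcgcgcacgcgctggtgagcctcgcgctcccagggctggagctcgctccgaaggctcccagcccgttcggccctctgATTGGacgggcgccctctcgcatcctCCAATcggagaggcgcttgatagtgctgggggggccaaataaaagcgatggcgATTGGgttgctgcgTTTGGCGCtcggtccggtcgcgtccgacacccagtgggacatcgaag
Suz12, chr11:79992856-79993155, plus strand: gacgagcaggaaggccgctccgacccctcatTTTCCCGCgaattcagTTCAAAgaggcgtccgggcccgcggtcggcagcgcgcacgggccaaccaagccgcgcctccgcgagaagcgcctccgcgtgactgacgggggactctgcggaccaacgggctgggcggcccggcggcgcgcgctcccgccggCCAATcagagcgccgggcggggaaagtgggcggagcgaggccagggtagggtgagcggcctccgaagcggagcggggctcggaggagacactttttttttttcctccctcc

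A total of 33 of the 37 measured members had a window in the table, 44 windows in all, and Pcgf1, Cbx2, Hdac1 and Hdac3 had none. Cbx5 has 2 annotated windows, of which the first is shown. The E2F-type motif, bound by the E2F factors of the cell cycle, was searched as TTTCCCGC, TTTCGCGC, TTTGCCGC or TTTGGCGC, the cell cycle homology region CHR as TTTGAA or TTCGAA, and the NF-Y motif as CCAAT. No matches of different motifs overlapped in the windows shown. An E2F-type match stood in 4 of the 44 member windows (9.09%), those of Ezh2, Suz12, Phf19 and Cbx3, against 2.26% of all 32851 windows in the table. CCAAT stood in 19 member windows (43.2%) against 37.4% of all windows, and the CHR letters in 5 (11.4%) against 19.2%. The Ezh2 window held an E2F-type match and 3 CCAAT matches, while the Rnf2 window held none of these letters. These matches are descriptions of the sequence.

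The arrays were alike in scale except for FP-high replicate 1. On that array the SD of the deposited log2 values over all tested probe sets was 1.21, against 1.89 to 2.10 on the other 12 arrays. Its median correlation with the others was 0.762, against 0.943 to 0.968 for the rest. It held the lowest value of all 13 arrays for 20 of the 37 members and the mean of its members was 5.03, against 5.94 to 6.35 elsewhere. The main results are therefore given with and without it. Group means and SDs of FP-high arrays include it, and some differences of single genes and gene pairs are given with all arrays only. Of 12 epithelial markers 9 had lower means in FP-high than in FP-low epithelium (median difference -0.48, or -0.12 without replicate 1, with 0 called by limma in either fit and 1 lower at an unadjusted p under 0.05 with all arrays). Their mean was 6.22 on FP-high replicate 1, against 7.76 to 8.63 on the other arrays. On that array Epcam was 7.58, Cdh1 5.15 and Krt18 5.81, against 8.85 to 9.58, 8.53 to 9.50 and 7.41 to 9.47 on the others. Cdx1 of the same list went the other way, at 7.43 on that array against 5.47 to 6.62 on the others. Exactly repeated values occur in the table: 8 members (21.6%) had the same value on at least 2 arrays, against 25.2% of all probe sets, and Ezh1 had 1 value on 6 arrays. At least 4 equal arrays occurred for 3 members (8.11%), against 3.55% of all probe sets. A small SD of a gene with repeated values, such as Ezh1, should not be read as precision.

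No member passed the threshold, or was called, in any of the 4 comparisons between groups, at a limma adjusted p under 0.05 over 23410 probe sets with a symbol. Between FP-high and FP-low epithelium 0% of all tested probe sets passed as well. Adenoma was also set against normal epithelium, taken as the midpoint of both normal group means, and there 0.91% of all tested probe sets passed (213 probe sets, 207 of them higher). Adenoma against FP-low called 0.551% and adenoma against FP-high 0.765%. At an unadjusted p under 0.05, 8 members were lower and 0 higher in FP-high than in FP-low epithelium (21.6% lower, against 7.95% of all probe sets, and 0% higher, against 4.78%). In adenoma against normal epithelium, 2 members were higher (5.41%, against 5.98% of all probe sets) and 1 was lower (2.7%, against 4.59%). Adenoma arrays lay above all FP-low arrays for 1 member and below them for 2, against 3.67% and 5.64% of all probe sets, and above all FP-high arrays for 4 members and below them for 2, against 6.74% and 10.4%. The comparisons share arrays, so their values are given side by side and were not set against each other.

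Members lay on average lower in FP-high than in FP-low epithelium, by amounts that depended on 1 array. The median log2 difference of the 37 members was -0.33, against 0.05 for all tested probe sets, and 29 of the 37 differences were negative. Without FP-high replicate 1 the member median was -0.11 against 0.02 for all probe sets, 29 differences were again negative, and 5 members (13.5%, against 4.84% of all probe sets) were lower and 1 was higher (2.7%, against 3.69%) at an unadjusted p under 0.05. The difference was larger for members whose probe sets had a brighter signal, a quantity that depends on the probes as well as on the RNA. Of the 37 members, 34 lay above the median level of all tested probe sets. The medians and shares of all probe sets, here and above, are thus not matched to the members in level. Whether members differed from other probe sets of like level was not tested. The 10 members with a mean log2 level above 7 were all lower in FP-high epithelium, with a median difference of -0.91, which was -0.29 without replicate 1. The 17 members with a mean level above 5 and up to 7 had a median of -0.33, or -0.11 without it, and the 10 members at 5 or lower had 0.01, or 0.02 without it.

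**Figure D1:**
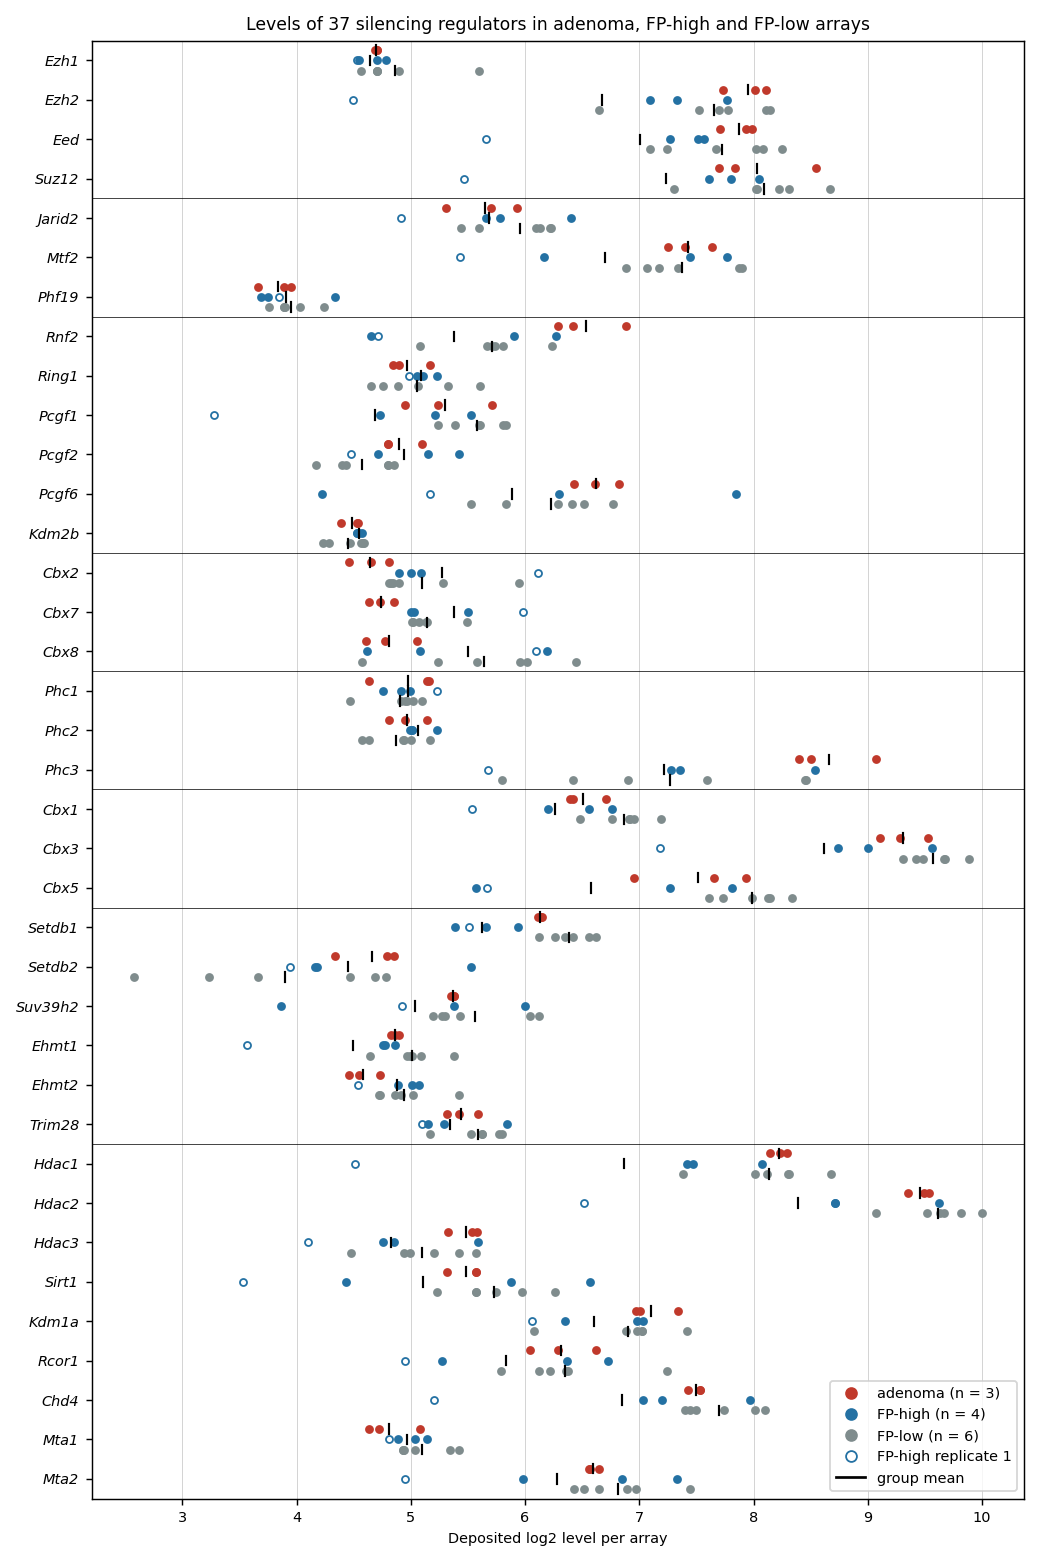
Deposited log2 level (x axis) of the 37 measured members in each of 13 arrays, 1 row per gene, with roles separated by horizontal lines. Points are arrays of adenoma (top of each row), FP-high (middle) and FP-low (bottom), short bars are group means, and the open circle is FP-high replicate 1, which is the lowest array for 20 of the 37 members.

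**Figure D2:**
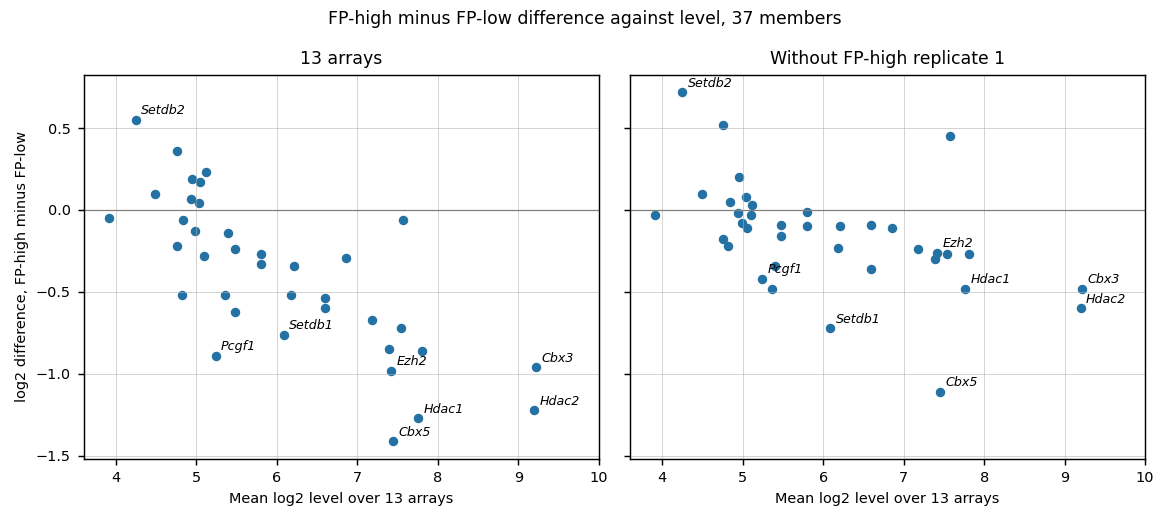
Log2 difference FP-high minus FP-low (y axis) of each of the 37 members against its mean log2 level over 13 arrays (x axis), with all arrays on the left and without FP-high replicate 1 on the right. Members with a mean level above 7 have a median difference of -0.91 on the left and -0.29 on the right.

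Markers of dividing cells also had lower means in FP-high epithelium. Of 27 measured markers of dividing cells, 27 were lower in FP-high epithelium, 23 of them at an unadjusted p under 0.05 and 0 after limma adjustment (median difference -0.95), and without replicate 1 the count was 17 (63%) with a median of -0.79. Their mean level per array was 6.73, 6.66 and 7.15 in adenomas, 5.40, 6.56, 6.88 and 6.06 in FP-high arrays and 6.96 to 7.42 in FP-low arrays. Of 14 enterocyte markers, 14 had higher means in FP-high epithelium (median difference 0.91, with 0 called by limma), and without replicate 1 the median was 1.44. Of 7 Paneth cell markers, 7 had lower means in FP-high epithelium (median difference -1.29, with 0 called and 0 at an unadjusted p under 0.05), and without replicate 1 the count was 6 and the median -0.36. In these bulk samples fewer cells of a type and less RNA per cell cannot be told apart. The part of these lists in the members' values was not tested.

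**Figure D3:**
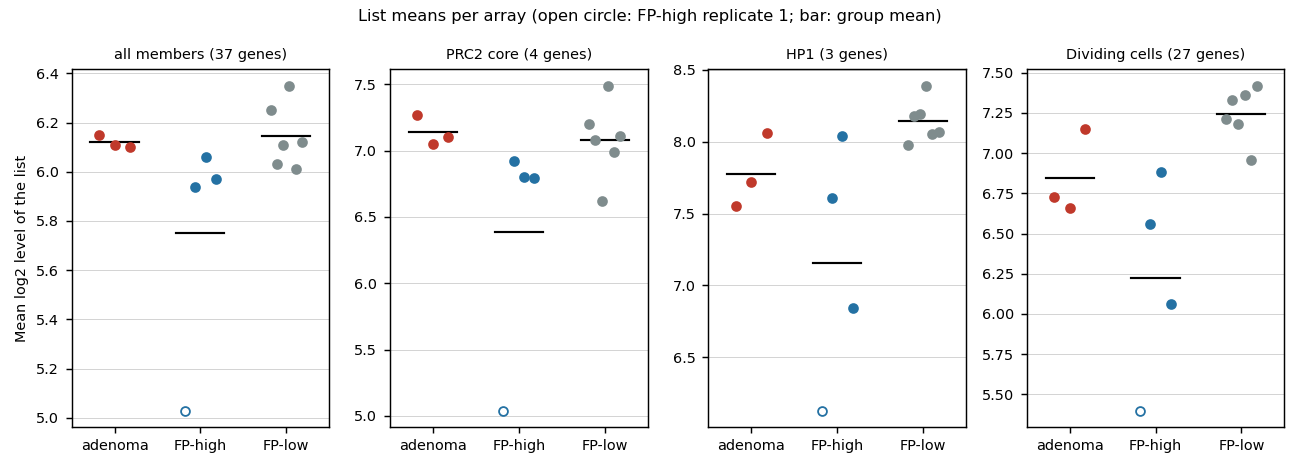
Mean log2 level (y axis) of all 37 members, the 4 core PRC2 members, the 3 HP1 members and 27 markers of dividing cells, 1 point per array in adenoma, FP-high and FP-low groups, with bars at group means. FP-high replicate 1 (open circle) lies lowest in all 4 panels, and the FP-high arrays of the dividing-cell list, at 5.40 to 6.88, lie below all FP-low arrays.

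The adenoma differences of the members went in both directions. Against normal epithelium the median over the 37 members was 0.12, against -0.09 for all tested probe sets, with 25 differences above 0, and without FP-high replicate 1 it was -0.01, against -0.07, with 18 above 0. Against FP-low epithelium alone, which does not involve that array's values, the median was -0.14, against -0.06 for all probe sets. Against FP-high epithelium alone it was 0.37, against -0.11, and 0.09 without replicate 1, against -0.08. Among 11 markers of macrophages, neutrophils and mast cells, 8 had higher means in adenomas than in normal epithelium and 1 was called higher by limma. That one was Mcpt2, a mast cell protease named here after its values were seen (log2 difference 3.77, limma adjusted p = 2.53e-05). Lyz2 of the same list had a lower mean in adenomas, with a difference of -1.89 (adjusted p = 0.173), and of -2.15 without FP-high replicate 1, where it was called lower (adjusted p = 0.0264). It stood at 6.35, 6.90 and 7.75 in adenomas, 6.78 to 9.41 in FP-high arrays and 8.35 to 10.43 in FP-low arrays. The means of this list were 4.82, 4.71 and 3.99 in adenomas, 3.83 to 4.18 in FP-high arrays and 3.72 to 4.12 in FP-low arrays. Markers of 2 other lists were called higher in adenomas, again named after their values were seen: the fibroblast gene Dcn, by 2.36 (limma adjusted p = 0.0277), and the leukocyte gene Ptprc, by 0.79 (adjusted p = 0.0393).

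Dcn stood at 7.62, 6.14 and 4.41 in adenomas, 3.48 to 4.07 in FP-high arrays and 3.35 to 3.96 in FP-low arrays, so all adenomas lay above all normal arrays by very unequal amounts. In its list of 12 fibroblast and smooth muscle markers 6 had higher and 6 lower means in adenomas (median -0.01), with list means of 4.89, 4.66 and 4.33 in adenomas, 4.34 to 4.63 in FP-high arrays and 4.23 to 4.59 in FP-low arrays. Ptprc was the only one of 10 lymphocyte markers with a higher mean in adenomas (median -0.42), and the list means were 4.38, 4.72 and 4.26 in adenomas, 4.68 to 5.58 in FP-high arrays and 4.03 to 5.0 in FP-low arrays. Of 7 Paneth cell markers 5 had lower means in adenomas (median -0.93), 3 of them at an unadjusted p under 0.05 and 0 called by limma, and without FP-high replicate 1 it was 6 lower, with a median of -1.10 and 2 called lower (Lyz1 and Defa24). Of 8 endothelial markers 4 had higher and 4 lower means in adenomas, with 0 called. Without FP-high replicate 1, 3 were higher and 5 lower, and 2 were called (smallest limma adjusted p = 0.014). In that fit 1 of 12 epithelial markers was also called (limma adjusted p = 0.0344), with 5 higher and 7 lower. Of 27 markers of dividing cells, 14 had higher and 13 lower means in adenomas, with 2 higher at an unadjusted p under 0.05 and 0 called. This midpoint joins opposite directions. Against FP-low epithelium 25 were lower (median -0.41), 2 of them at an unadjusted p under 0.05. Against FP-high epithelium 24 were higher (median 0.66), 7 of them at that p, and without FP-high replicate 1 it was 21 (median 0.25). The part of all these cells in the members' adenoma values was not tested.

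The PRC2 core comprises the methyltransferases Ezh2 and Ezh1, the scaffold and reader Eed, and Suz12, which holds the complex together. Ezh2 stood at 8.11, 7.73 and 8.01 in adenomas, 4.49, 7.33, 7.77 and 7.09 in FP-high arrays, and from 6.65 to 8.14 with a median of 7.74 in FP-low arrays. FP-high replicate 1 was the lowest by far, and the other 3 FP-high arrays lay within the FP-low range. The difference FP-high minus FP-low was -0.98 ± 0.52 (± the standard error of limma, adjusted p = 0.4) and -0.26 ± 0.29 without replicate 1, and adenoma minus normal was 0.79 ± 0.54 (adjusted p = 0.597), with a 95% interval from -0.38 to 1.95, against 0.42 ± 0.28 without that array.

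Eed averaged 7.88 ± 0.15 in adenomas, 7.0 ± 0.90 in FP-high and 7.72 ± 0.48 in FP-low arrays (SD, n = 3, 4 and 6), and Suz12 averaged 8.03 ± 0.46 in adenomas, 7.23 ± 1.19 in FP-high and 8.09 ± 0.45 in FP-low arrays. Both had their lowest value on FP-high replicate 1, and their differences from FP-low were -0.72 and -0.86, against -0.27 for each without that array. The other probe set of Eed, much dimmer with a mean of 3.53, went the other way. It gave 0.27 for FP-high minus FP-low, and -0.23 for adenoma minus normal, against 0.51 on the probe set used. Ezh1, the paralogue of Ezh2 that is known from non-dividing cells, averaged 4.70 ± 0.01 in adenomas, 4.64 ± 0.12 in FP-high and 4.86 ± 0.38 in FP-low arrays. Related genes were also compared within arrays, where the offset between a pair of probe sets has no meaning of its own and only its difference between groups was tested. The within-array difference of Ezh2 minus Ezh1 averaged 2.03 ± 1.43 in FP-high and 2.79 ± 0.53 in FP-low arrays, a difference of -0.76 (exact two-sided permutation p = 0.314, adjusted p = 0.641 over 16 pair tests), and -0.07 without replicate 1. Between adenoma and normal arrays it averaged 3.25 ± 0.19 against 2.48 ± 1.00 (exact permutation p = 0.0979, adjusted p = 0.261), a difference of 0.76, which was 0.48 without replicate 1.

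The accessory subunits Jarid2, Mtf2 and Phf19 help bring PRC2 to its targets. Jarid2 averaged 5.64 ± 0.31 in adenomas, 5.69 ± 0.61 in FP-high and 5.95 ± 0.34 in FP-low arrays. Mtf2 averaged 7.43 ± 0.19 in adenomas, 6.70 ± 1.09 in FP-high and 7.37 ± 0.43 in FP-low arrays, and Phf19 3.83 ± 0.15 in adenomas, 3.91 ± 0.30 in FP-high and 3.95 ± 0.16 in FP-low arrays. Their adjusted p-values by limma were 0.423 or higher between FP-high and FP-low epithelium and 0.688 or higher between adenoma and normal epithelium. In the list of 7 other PRC2 genes 0 were called. The 2 with the smallest p were the histone chaperone Rbbp4, with an FP-high minus FP-low difference of -1.16 ± 0.32 (adjusted p = 0.256), and Lcorl, with -0.85 ± 0.39 (adjusted p = 0.392), against -0.86 ± 0.28 and -0.44 ± 0.32 without FP-high replicate 1.

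Rnf2 (Ring1B) and Ring1 are the ubiquitin ligases of PRC1. Rnf2 stood at 6.88, 6.29 and 6.42 in adenomas, 4.71, 4.65, 5.90 and 6.27 in FP-high arrays, and from 5.08 to 6.24 with a median of 5.73 in FP-low arrays. All 3 adenomas lay above all 10 normal arrays, by a narrow margin: the lowest adenoma was 6.29 and the highest normal array 6.27. Groups that separate in this way, with adenoma higher, made up 1.93% of all tested probe sets. Xist, the RNA of the inactive X chromosome, was high in all adenomas and in FP-high replicate 4 and FP-low replicate 6. Those replicates were the highest normal arrays for Rnf2 (6.27 and 6.24), and the other normal arrays reached at most 5.90. A difference of adenomas in Rnf2 can thus not be told apart from a difference that goes with Xist. The adenoma minus normal difference of Rnf2 was 0.98 ± 0.33 (95% interval 0.27 to 1.70), with a limma adjusted p of 0.285, which misses the threshold, and 0.87 ± 0.31 without FP-high replicate 1. Ring1 averaged 4.97 ± 0.18 in adenomas, 5.09 ± 0.11 in FP-high and 5.05 ± 0.36 in FP-low arrays. Within arrays, Rnf2 minus Ring1 averaged 1.56 ± 0.46 in adenomas and 0.51 ± 0.62 in normal arrays, a difference of 1.05 (exact permutation p = 0.035, adjusted p = 0.183).

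The Pcgf proteins define the variants of PRC1. Pcgf1 stood at 4.95, 5.24 and 5.71 in adenomas, 3.28, 5.53, 4.73 and 5.21 in FP-high arrays, and from 5.24 to 5.83 with a median of 5.61 in FP-low arrays. FP-high replicate 1 was lowest of all and FP-high replicate 3 and 4 also lay below the lowest FP-low array. The FP-high minus FP-low difference was -0.89 ± 0.35 (limma adjusted p = 0.388) and -0.42 ± 0.21 without replicate 1. Pcgf2 averaged 4.90 ± 0.18 in adenomas, 4.94 ± 0.42 in FP-high and 4.58 ± 0.28 in FP-low arrays and was the only member higher in FP-high epithelium at an unadjusted p under 0.05 without replicate 1, by 0.52 ± 0.19 (adjusted p = 0.476). Pcgf6 had the widest range of all members among FP-high arrays, from 4.22 to 7.85, and Kdm2b, which brings variant PRC1 to unmethylated CpG islands, varied least, between 4.23 and 4.59 over all 13 arrays.

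The Cbx subunits Cbx2, Cbx7 and Cbx8 bind the PRC2 mark and all had lower means in adenoma than in either normal group. Of all tested probe sets, 14498 of 23410 were also lower in adenoma than in normal epithelium. The adenoma values of these subunits, 4.46 to 5.05, lay close to the adenoma array medians of all tested probe sets (4.55 to 4.60), so signal was low. Cbx7 stood at 4.85, 4.73 and 4.63 in adenomas, 5.98, 5.0, 5.03 and 5.50 in FP-high arrays, and from 5.01 to 5.49 with a median of 5.10 in FP-low arrays. All 3 adenomas lay below all 10 normal arrays. The adenoma minus normal difference was -0.52 ± 0.19 (95% interval -0.94 to -0.10, limma adjusted p = 0.347) and -0.42 ± 0.14 without FP-high replicate 1, the highest array for this gene. With array weights the difference was -0.40 and its adjusted p 0.0492, the only setting in which the adenoma difference of a member passed the threshold.

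Cbx2 stood at 4.81, 4.65 and 4.46 in adenomas, 6.11, 5.09, 4.90 and 5.0 in FP-high arrays, and from 4.81 to 5.95 with a median of 4.87 in FP-low arrays. Adenomas again lay below all normal arrays, but the highest adenoma and the lowest normal array both round to 4.81. The adenoma difference of Cbx2 from normal epithelium was -0.55 ± 0.28 (limma adjusted p = 0.513) and -0.41 ± 0.22 without replicate 1. Adenoma arrays below all normal arrays made up 2.04% of all tested probe sets. Cbx8 stood at 4.61, 4.77 and 5.05 in adenomas, 6.10, 6.19, 4.62 and 5.08 in FP-high arrays, and from 4.57 to 6.45 with a median of 5.77 in FP-low arrays, with groups that overlapped and a difference of -0.76 ± 0.39 (limma adjusted p = 0.515). The within-array difference Cbx2 minus Cbx7 gave adjusted p-values of 0.903 between FP-high and FP-low and 0.924 between adenoma and normal arrays (exact permutation).

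Among the Phc subunits, which polymerise PRC1, Phc3 had the largest adenoma difference of all members. It stood at 8.40, 9.07 and 8.50 in adenomas, 5.68, 8.54, 7.28 and 7.36 in FP-high arrays, and from 5.80 to 8.46 with a median of 7.24 in FP-low arrays. Normal arrays spread widely and their highest reached the adenoma range. The adenoma minus normal difference was 1.41 ± 0.60 (limma adjusted p = 0.425) and 1.16 ± 0.53 without FP-high replicate 1. The other probe set of Phc3, much dimmer with a mean of 4.33, gave an adenoma difference of 0.56. Phc1 and Phc2 had adenoma differences of 0.04 ± 0.17 and 0.00 ± 0.15, against 0.08 ± 0.15 and -0.01 ± 0.14 without that array. In the list of 18 other PRC1 genes 0 were called. Yaf2, a partner of the ligases, stood at 5.71, 5.20 and 4.95 in adenomas against 3.63 to 4.86 in FP-high and 3.63 to 4.50 in FP-low arrays, above both groups, with an adenoma minus normal difference of 0.97 ± 0.27 (adjusted p = 0.15). Without FP-high replicate 1, adenoma minus FP-low for Yaf2 was 1.08 ± 0.21 (adjusted p = 0.0272), where 1.58% of all probe sets were called. Bmi1 (Pcgf4), known from intestinal stem cells, had an adenoma difference of 0.98 ± 0.36 (adjusted p = 0.338).

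**Figure D4:**
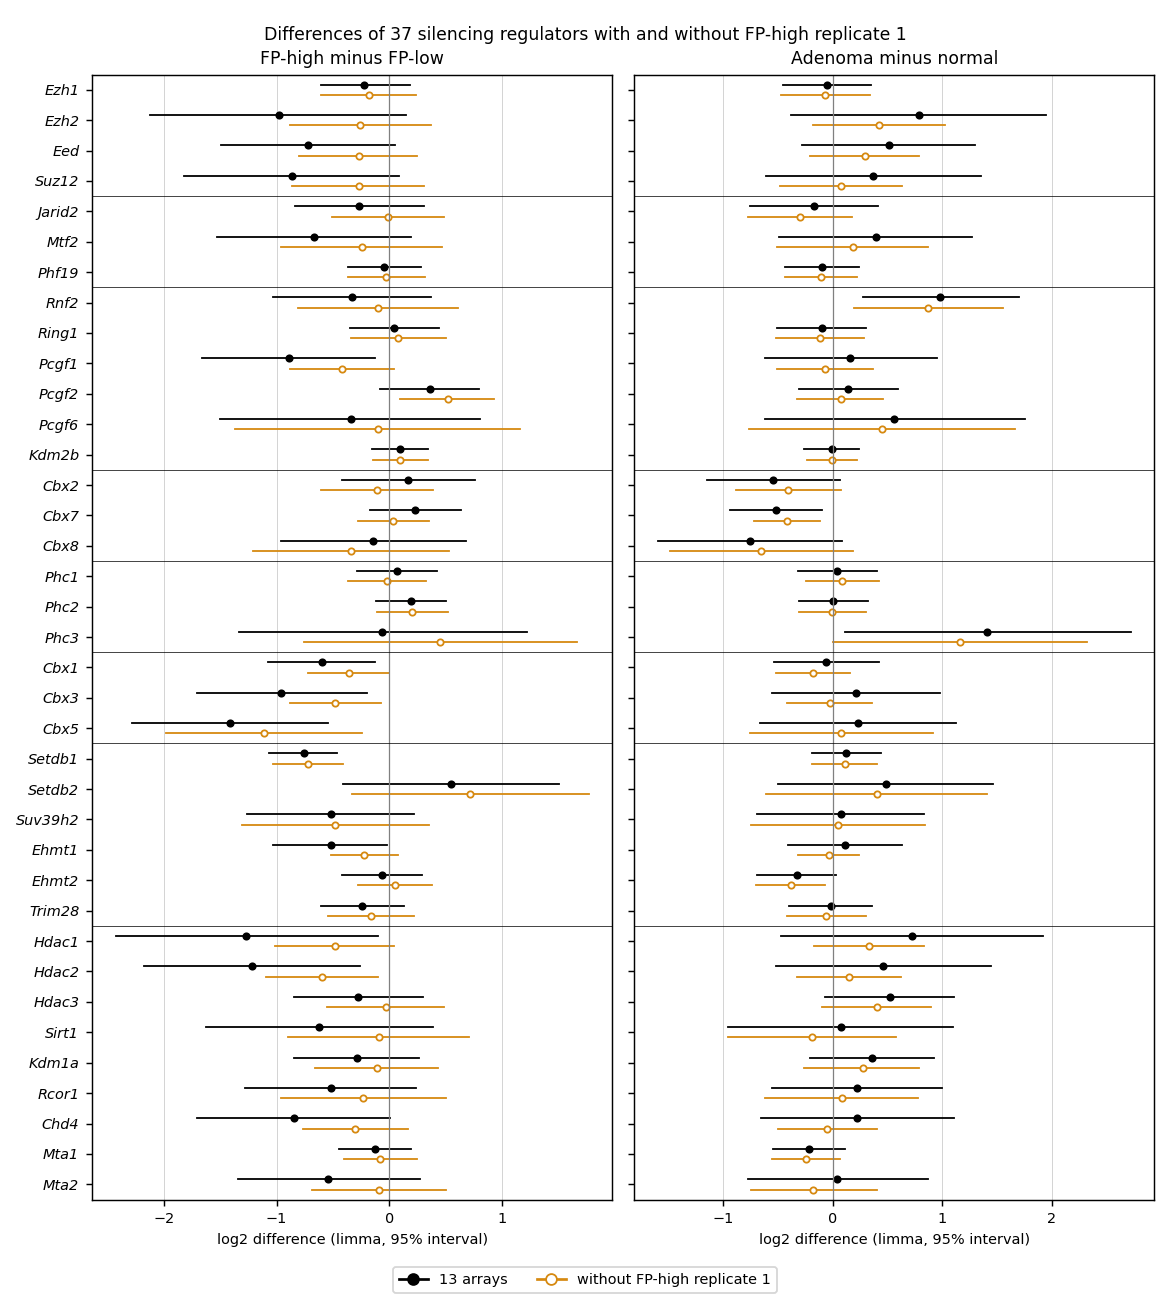
Log2 difference with its 95% interval (x axis, limma) for each of the 37 members, FP-high minus FP-low on the left and adenoma minus normal on the right, from 13 arrays (black) and without FP-high replicate 1 (orange, open). Rnf2 lies above 0 and Cbx7 below 0 in the right panel in both fits, and the intervals of Setdb1, Cbx5 and Hdac2 lie below 0 in the left panel in both fits.

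Setdb1, which methylates H3K9 and silences retroelements, had the smallest p-value of any member. It stood at 6.11, 6.14 and 6.15 in adenomas, 5.51, 5.66, 5.39 and 5.94 in FP-high arrays, and from 6.12 to 6.62 with a median of 6.38 in FP-low arrays. All 4 FP-high arrays lay below all 6 FP-low arrays and below all 3 adenomas, and adenoma and FP-low arrays overlapped. FP-high arrays below all FP-low arrays made up 1.51% of all tested probe sets. The FP-high minus FP-low difference was -0.76 ± 0.14 (95% interval -1.07 to -0.46), number 20 of the 23410 probe sets by p, with a limma adjusted p of 0.14. Without replicate 1 it was -0.72 ± 0.14 (adjusted p = 0.172), so this difference did not rest on that array, and adenoma minus FP-high was 0.50 ± 0.17 (adjusted p = 0.216). Over the 21 settings tried, the adjusted p of the FP-high minus FP-low difference ran from 0.0649 to 0.508.

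The groups of the other H3K9 methylation members overlapped. Setdb2 averaged 4.66 ± 0.28 in adenomas, 4.45 ± 0.73 in FP-high and 3.90 ± 0.89 in FP-low arrays, with 1 FP-low array at 2.58. Within arrays, Setdb1 minus Setdb2 averaged 1.17 ± 0.74 in FP-high and 2.48 ± 0.91 in FP-low arrays (difference -1.31, exact permutation p = 0.0571, adjusted p = 0.183). Suv39h2 averaged 5.37 ± 0.02 in adenomas, 5.04 ± 0.90 in FP-high and 5.56 ± 0.41 in FP-low arrays, and Trim28, the corepressor that recruits Setdb1, averaged 5.44 ± 0.13 in adenomas, 5.34 ± 0.34 in FP-high and 5.58 ± 0.23 in FP-low arrays.

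Ehmt1 and Ehmt2 work as a heterodimer that dimethylates H3K9. Ehmt2 stood at 4.46, 4.55 and 4.73 in adenomas, 4.54, 5.01, 5.07 and 4.89 in FP-high arrays, and from 4.72 to 5.42 with a median of 4.88 in FP-low arrays, with overlapping groups, and its adenoma minus normal difference was -0.33 ± 0.17 (limma adjusted p = 0.511). Ehmt1 averaged 4.86 ± 0.03 in adenomas, 4.49 ± 0.61 in FP-high and 5.01 ± 0.24 in FP-low arrays, with FP-high replicate 1 at 3.57. Ehmt1 minus Ehmt2 within arrays averaged 0.28 ± 0.11 in adenomas and -0.11 ± 0.36 in normal arrays (difference 0.39, exact permutation p = 0.035, adjusted p = 0.183). Between FP-high and FP-low arrays the difference was -0.46 (exact permutation p = 0.0381, adjusted p = 0.183), or -0.27 without replicate 1.

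The HP1 proteins Cbx1, Cbx3 and Cbx5 read the H3K9 mark, and all 3 had lower means in FP-high than in FP-low epithelium. Cbx5 (HP1 alpha) stood at 6.95, 7.65 and 7.93 in adenomas, 5.67, 7.27, 7.81 and 5.57 in FP-high arrays, and from 7.61 to 8.34 with a median of 8.06 in FP-low arrays. FP-high replicates 1 and 4 were far below the FP-low range, replicate 2 was below it as well and replicate 3 fell inside it. The FP-high minus FP-low difference was -1.41 ± 0.40 (limma adjusted p = 0.263) and -1.11 ± 0.40 without replicate 1. Leaving out FP-high replicate 3 instead gave -1.82 and an adjusted p of 0.0481, past the threshold.

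Cbx3 (HP1 gamma) stood at 9.28, 9.11 and 9.53 in adenomas, 7.18, 9.0, 9.56 and 8.74 in FP-high arrays, and from 9.31 to 9.89 with a median of 9.58 in FP-low arrays. Replicate 3 was inside the FP-low range and the other 3 FP-high arrays below it. Its FP-high minus FP-low difference was -0.96 ± 0.35 (limma adjusted p = 0.364), or -0.48 ± 0.19 without replicate 1. Cbx1 (HP1 beta) stood at 6.42, 6.39 and 6.71 in adenomas, 5.54, 6.56, 6.76 and 6.20 in FP-high arrays, and from 6.48 to 7.19 with a median of 6.92 in FP-low arrays, with a difference of -0.60 ± 0.22 (adjusted p = 0.364) and -0.36 ± 0.16 without replicate 1. All 3 HP1 genes were lower at an unadjusted p under 0.05 with and without that array, against 7.95% and 4.84% of all probe sets. Without it Cbx1 was close to that threshold (limma unadjusted p = 0.0484). Cbx5 minus Cbx1 within arrays averaged 0.31 ± 0.74 in FP-high and 1.12 ± 0.42 in FP-low arrays (difference -0.81, exact permutation p = 0.0571, adjusted p = 0.183). Cbx3 has 7 probe sets with its symbol alone, and only the brightest was used.

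In the list of 17 partners and demethylases of the H3K9 system 0 were called. Smarcad1, a remodeller that helps restore H3K9 methylation after replication, stood at 7.57, 6.68 and 6.65 in adenomas, 4.36, 4.58, 5.21 and 6.19 in FP-high arrays, and from 5.14 to 6.31 with a median of 5.84 in FP-low arrays. All adenomas lay above all normal arrays, with a difference of 1.52 ± 0.36 (limma adjusted p = 0.0799), or 1.40 ± 0.33 without FP-high replicate 1 (adjusted p = 0.0566). Pphln1, a subunit of the HUSH silencing complex, had an FP-high minus FP-low difference of -1.31 ± 0.36 (adjusted p = 0.259).

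All 9 deacetylase and corepressor members had lower means in FP-high than in FP-low epithelium, with a median difference of -0.54, which was -0.11 without FP-high replicate 1. Hdac2 stood at 9.49, 9.35 and 9.54 in adenomas, 6.52, 8.71, 9.62 and 8.71 in FP-high arrays, and from 9.07 to 10 with a median of 9.65 in FP-low arrays. In all, 3 of the 4 FP-high arrays lay below the FP-low range. The difference was -1.22 ± 0.44 (limma adjusted p = 0.364) and -0.60 ± 0.23 without replicate 1. Hdac1, its partner in the NuRD, Sin3 and CoREST complexes, stood at 8.23, 8.14 and 8.29 in adenomas, 4.51, 7.42, 7.47 and 8.07 in FP-high arrays, and from 7.38 to 8.68 with a median of 8.21 in FP-low arrays. Its FP-high minus FP-low difference of -1.27 ± 0.54 was -0.48 ± 0.24 without replicate 1, and adenoma minus FP-high was 1.36 ± 0.64 (adjusted p = 0.323), against 0.57 ± 0.28 without replicate 1, with all adenomas above all FP-high arrays. Hdac2 minus Hdac1 within arrays averaged 1.53 ± 0.70 in FP-high and 1.48 ± 0.55 in FP-low arrays (exact permutation p = 0.924).

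Hdac3, the enzyme of the NCoR and SMRT complexes, stood at 5.54, 5.58 and 5.33 in adenomas, 4.10, 4.76, 5.59 and 4.85 in FP-high arrays, and from 4.48 to 5.57 with a median of 5.10 in FP-low arrays. Its groups overlapped, and adenoma minus FP-high was 0.66 ± 0.31 (limma adjusted p = 0.328), or 0.42 ± 0.28 without FP-high replicate 1. Mta1, a NuRD subunit, stood at 5.08, 4.72 and 4.63 in adenomas, 4.81, 4.89, 5.04 and 5.14 in FP-high arrays, and from 4.93 to 5.42 with a median of 4.99 in FP-low arrays, with an adenoma minus FP-low difference of -0.29 ± 0.16 (adjusted p = 0.79). The NuRD remodeller Chd4 averaged 7.50 ± 0.06 in adenomas, 6.85 ± 1.17 in FP-high and 7.70 ± 0.30 in FP-low arrays, and Mta2 averaged 6.59 ± 0.05 in adenomas, 6.28 ± 1.05 in FP-high and 6.82 ± 0.37 in FP-low arrays. The within-array difference Mta2 minus Mta1 gave exact permutation adjusted p-values of 0.641 between FP-high and FP-low and 0.878 between adenoma and normal arrays.

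Kdm1a, the H3K4 demethylase of the CoREST complex, averaged 7.11 ± 0.20 in adenomas, 6.61 ± 0.48 in FP-high and 6.90 ± 0.44 in FP-low arrays, and its partner Rcor1 averaged 6.32 ± 0.29 in adenomas, 5.83 ± 0.85 in FP-high and 6.35 ± 0.48 in FP-low arrays. The NAD-dependent deacetylase Sirt1 averaged 5.48 ± 0.14 in adenomas, 5.11 ± 1.38 in FP-high and 5.72 ± 0.36 in FP-low arrays, and its 4 FP-high arrays ran from 3.53 to 6.57, beyond the FP-low arrays at both ends. In the list of 28 other corepressor genes 0 were called. The smallest p-values were those of Tbl1x, on the X chromosome, and Sap18, whose FP-high minus FP-low differences were -1.02 ± 0.27 (limma adjusted p = 0.235) and -1.08 ± 0.35 (adjusted p = 0.331), against -0.71 ± 0.19 and -0.72 ± 0.30 without replicate 1.

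Other enzymes of histone marks and genes that Polycomb classically silences were read in the same fits. Of 7 genes of the H2A deubiquitinase complex 0 were called, and Asxl2 and Asxl1 had adenoma minus normal differences of 0.87 ± 0.28 and 0.46 ± 0.21 (limma adjusted p = 0.26 and 0.471). Of 12 genes of H3K4 methylation and demethylation 0 were called. Kdm5a, a demethylase of that mark, was -0.90 ± 0.28 in FP-high minus FP-low (limma adjusted p = 0.295), or -0.52 ± 0.14 without replicate 1. The H3K27 demethylases Kdm6a, on the X chromosome, and Uty, on the Y chromosome, had adenoma minus normal differences of 0.99 ± 0.31 (adjusted p = 0.232) and -1.90 ± 0.53 (adjusted p = 0.165), and the Y-linked Kdm5d had -1.58 ± 0.42 (adjusted p = 0.142). Xist, the RNA of the inactive X chromosome, was high in all 3 adenomas (8.88 to 9.71), in FP-high replicate 4 (8.64) and in FP-low replicate 6 (8.74), and at most 3.61 on the other arrays. Uty was 2.10 to 2.41 in adenomas, 2.92 and 2.66 on those 2 normal arrays with high Xist, and 2.97 to 5.61 on the 8 normal arrays with low Xist. Kdm5d was 2.90 to 3.31 in adenomas, 3.52 and 3.43 on the normal arrays with high Xist, and 4.33 to 5.72 on those with low Xist. The levels of both Y-linked genes thus went with those of Xist within the normal epithelium as well. All 3 adenomas had high Xist, while 8 normal arrays had low Xist, so adenoma and Xist level are largely confounded in these arrays. For Kdm6a, Uty and Kdm5d, and for the member Rnf2, a difference of adenomas can therefore not be told apart from a difference that goes with Xist.

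Of 37 classical Polycomb target genes, among them the Hox clusters, 0 were called in any of the comparisons with 13 arrays. In FP-high against FP-low epithelium 31 of the 37 had higher means, with a median difference of 0.16 against 0.05 for all probe sets. Without FP-high replicate 1 only 16 were higher and the median was -0.03, so the direction of the list turned with that array, on which its mean was 4.80, against 4.10 to 4.44 on the others. In adenoma against normal epithelium 31 had lower means, with a median of -0.22, against -0.09 for all probe sets, of which 14498 of 23410 were lower. Without replicate 1 the count was 30 and the median -0.11, against -0.07 for all probe sets. Outside replicate 1 the list means lay below the array medians of all tested probe sets, which were 4.55 to 4.65, so signal was low. Hoxa5 had a higher mean in adenomas, at 4.50, 5.02 and 4.64 in adenomas, 4.54, 3.76, 3.82 and 3.66 in FP-high arrays, and from 3.46 to 4.22 with a median of 3.80 in FP-low arrays. Adenomas overlapped the normal arrays through FP-high replicate 1. The adenoma minus normal difference of Hoxa5 was 0.82 ± 0.22 (limma adjusted p = 0.136) and 0.92 ± 0.18 without replicate 1 (adjusted p = 0.0205, in a fit that called 2.08% of all probe sets), while that of Hoxd11 was -0.57 ± 0.19 (adjusted p = 0.288).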

How the data were processed

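Each of the 13 samples was measured on 1 array. The authors deposited log2 levels of 35556 probe sets, made with Affymetrix software: the Command Console per the design text, and the Affymetrix Expression Console and Transcriptome Analysis Console per the submitters' processing notes. Software versions, background correction, normalization and genome build were not given in the sources used here. By their range, the deposited values lie on a log2 scale. Of the probe sets, 23410 had at least 1 symbol and were tested, 21789 had exactly 1, 1621 had several and 12146 had none. By Entrez identifier 21698 of those with 1 symbol matched RefSeq genes of GRCm38.p6 and 0 symbols needed updating. Arrays give no read depth, and their number limits the precision.

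The groups were compared in R version 4.3.3 with a linear model and moderated two-sided tests by limma (version 3.58.1; 3 groups, no covariate, no filter), with Benjamini-Hochberg adjustment over the 23410 probe sets and a call at an adjusted p under 0.05. Differences are given ± the standard error of limma and levels ± the SD between arrays. The scripts were tested on simulated data. In all, 8 pairs of related genes were compared within arrays by exact two-sided permutation of array labels (SciPy version 1.17.1, Python version 3.11.15), adjusted over 16 tests. The pair of Suv39h2 and Suv39h1 was not run. Only 210 splits of 4 against 6 arrays exist, which sets a lower limit on the two-sided p that such a test can give. The members and lists were chosen with earlier results of these data known. Genes given in full were the 6 members with the smallest p in each of 4 comparisons, 15 genes in all, and of each related list the 2 genes with the smallest p.

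The groups share replicate numbers. Deviations from group means of same-numbered adenoma and FP-high arrays correlated at 0.233, 0.102 and 0.220, all above the bound of 0.1, while pairs that include an FP-low array gave values between -0.361 and 0.178. The labels state no pairing, and arrays with different numbers were not correlated, so these values do not show one. Xist was 8.88 to 9.71 in the adenomas and 2.65 to 3.61 in FP-high replicates 1 to 3, so same-numbered arrays of these groups differed in Xist. Alternatives were quantile normalization, array weights, a filter on dim probe sets, all deposited probe sets, only the groups compared, the replicate number as a block, a variance trend, the mean over a gene's probe sets, and leaving out each array. The counts at an unadjusted p without FP-high replicate 1 were added after seeing the data.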

Additional observations from a re-analysis of the deposited data

Results flagged for a closer look

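Single arrays stood apart from the rest of their group in 9 of 74 combinations of member and group tested by the gap of the extreme array over the range, where chance gives about 1 in 20. FP-high replicate 1 held 4 of the 9. On it Eed was 5.66 against 7.27 to 7.57 on the other FP-high arrays, Suz12 was 5.47 against 7.61 to 8.05, Ehmt1 was 3.57 against 4.76 to 4.86, and Cbx2 was 6.11 against 4.90 to 5.09. Thus 3 of these genes were low and 1 was high on the array. On FP-high replicate 2, Setdb2 was 5.53 against 3.94 to 4.18 and Phc2 was 5.23 against 4.99 to 5.01. Among FP-low arrays, Ezh1 was 5.60 on replicate 4 against 4.56 to 4.90, Cbx7 was 5.49 on replicate 3 against 5.01 to 5.14, and Phc1 was 4.47 on replicate 6 against 4.91 to 5.10.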

How the results depend on the processing

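Of the main results under the alternatives, 180 kept their value or call, 4 medians moved by more than the spread of the member median between arrays (0.19), and 2 counts went from 0 to 1 called member. Among results of single genes 496 kept their direction and side of the threshold and 2 newly passed it. The member median of adenoma minus FP-high was 0.37 in the main setting, 0.15 after quantile normalization, 0.08 with array weights and 0.09 to 0.5 over the fits that leave out 1 array. Leaving out 1 array, the member median ran from -0.5 to -0.11 for FP-high minus FP-low, from -0.16 to -0.08 for adenoma minus FP-low and from -0.01 to 0.18 for adenoma minus normal, and -0.11, 0.09 and -0.01 were the values without FP-high replicate 1. The count of called members was 0 to 1 for FP-high minus FP-low, with 1 (Cbx5, -1.82) without FP-high replicate 3, when 6 higher and 130 lower probe sets were called in all, and 0 to 0 for the adenoma comparisons. With array weights, which gave FP-high replicate 1 a weight of 0.0646, 1 member was called in adenoma minus normal (Cbx7, -0.40), with 692 higher and 461 lower probe sets in all. With the replicate number as a block, 0 members were called in each comparison and the member medians were -0.44, 0.21, -0.07 and 0.43 for FP-high minus FP-low, adenoma minus normal, adenoma minus FP-low and adenoma minus FP-high, and no call of a member changed. The cause of these shifts was not tested. Precision is limited by how few arrays there are, and 34 of the 37 members lay above the median level of all tested probe sets.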
